A study of Homo sapiens with 9 samples.

Results

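The genes described here are 10 receptor-type protein tyrosine phosphatases, with PTPRC, which encodes CD45, at their head. Every probe set annotated to exactly 1 of the 10 genes was taken, which gave 28 of the 54613 probe sets tested and covered 9 of the 10 genes. No probe set was annotated to PTPRJ alone, and PTPRJ was not analysed here. The set was chosen from the measured values of PTPRC, which were lowest in WWOX cells, intermediate in WFPA cells and highest in EV cells. The values of PTPRC in these groups are therefore given as a description, with no test, and tests are given only for the 23 probe sets of the 8 other genes.

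All cells were MDA-MB435S, an established metastatic melanoma line. WWOX cells were stably transduced to overexpress wild-type WWOX, a tumor suppressor with WW domains. WFPA cells overexpressed a WWOX with point mutations in the first WW domain that disturb binding to partner proteins, and EV cells carried an empty vector. The constructs were lentiviral, stable clones were selected with G418, and RNA of each group was read on 3 Affymetrix U133 Plus 2.0 arrays. Each group may thus stand for 1 clone, and nothing in the sources used here says that the 3 arrays came from separate cultures, so p-values measure only the spread between arrays. The group names are those of the sample titles. The vector field of the labels names wild-type WWOX for the EV arrays and no construct for the WWOX arrays, against the titles, and the EV titles carry the addition wox+. At the brightest WWOX probe set (223868_s_at) the log2 expression was 10.66 ± 0.276 in WWOX cells, 10.24 ± 0.118 in WFPA cells and 8.94 ± 0.284 in EV cells (SD, n = 3 arrays each), which runs the way of the titles. So did 221147_x_at, with means of 8.18 in WWOX cells, 7.64 in WFPA cells and 4.49 in EV cells, and in part 219077_s_at (5.13, 5.50 and 3.91), where neither construct passed the adjusted p against EV cells. 210695_s_at differed little (6.11, 5.98 and 5.98), and 223747_x_at was highest in EV cells (8.87, 8.38 and 9.11), so the 5 WWOX probe sets do not all run the way of the titles. The arrays were on 1 scale, with medians of 6.03 to 6.05 and lower quartiles of 4.23 to 4.34. Values under the lowest of these quartiles, 4.23, are called dim below. No background level is given, and how large a difference is cannot be judged well where a group was dim. Of 9 measured melanocyte markers 3 were called higher in WWOX than in EV cells, namely MITF, SOX10 and S100B. A call means an adjusted p under 0.05 in limma and at least 2-fold, and 3.9% of all 19775 genes were called in this comparison. PMEL, MLANA, TYR, TYRP1 and SLC45A2 had group means of at most 5.91 in every group. GPR143, a receptor of pigment cells, read 11.46 in WWOX cells, 11.45 in WFPA cells and 11.32 in EV cells.

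Receptor-type tyrosine phosphatases span the cell membrane and remove phosphate from tyrosine residues, opposite to the tyrosine kinases. Most carry a pair of phosphatase domains inside the cell, of which the one nearest the membrane is usually the active one, and outer parts that resemble adhesion molecules. CD45 is the abundant phosphatase of nucleated blood cells, where it removes the inhibitory phosphate of SRC-family kinases such as LCK, FYN and LYN and so sets the threshold of antigen receptor signaling. Through alternative splicing of its outer part it occurs as several isoforms, among them CD45RA and CD45RO. It is widely used as the marker of blood cells.

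The promoters of the members differ in base composition. In windows of 300 bases around RefSeq start sites (GRCh38.p14; 250 bases before and 50 after), the PTPRC window held 1 CpG dinucleotide, a count that 11% of all 35116 windows do not exceed, and had a GC content of 33.7%. The single window of PTPRF held 37 CpG (GC content 68.7%), and those of PTPRG, PTPRK and PTPRZ1 held 34, 44 and 38, against a median of 14 over all windows. PTPRD, PTPRE, PTPRM and PTPRO have more than 1 start site, with windows of both kinds (4 to 40, 4 to 35, 2 to 50 and 1 to 21 CpG). The stretches from 150 bases before the start to 10 bases after it are shown for PTPRC (chr1:198638890-198639049, plus strand) and PTPRF (chr1:43530733-43530892, plus strand), the members with the lowest WWOX levels relative to EV cells, 5′ to 3′ with CpG in capitals.
PTPRC: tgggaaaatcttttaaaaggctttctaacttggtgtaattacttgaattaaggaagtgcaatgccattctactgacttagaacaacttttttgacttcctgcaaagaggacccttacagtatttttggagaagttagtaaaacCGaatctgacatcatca
PTPRF: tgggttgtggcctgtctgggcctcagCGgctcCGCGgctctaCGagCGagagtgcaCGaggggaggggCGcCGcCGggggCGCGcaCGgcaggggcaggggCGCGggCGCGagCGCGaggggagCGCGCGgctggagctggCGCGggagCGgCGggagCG
The PTPRC stretch has 1 CpG and the PTPRF stretch 26. The TATA box letters TATAAA were searched on both strands and were found in neither full window, nor in those of PTPRG, PTPRK and PTPRZ1. They were found in 2 of the 4 windows of PTPRE, in 1 of 2 of PTPRM and in 1 of 2 of PTPRO, and in 11.5% of all windows. These are descriptions of sequence and say nothing on the use of the promoters in these cells.

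PTPRC was read by 5 probe sets, and 3 of them carried the pattern for which it was chosen. At the brightest one (212587_s_at) the log2 expression was 5.58, 5.97 and 4.88 on the WWOX arrays, 7.61, 7.51 and 7.88 on the WFPA arrays and 9.88, 10.04 and 9.72 on the EV arrays. The 3 groups did not overlap, and the WWOX arrays were the lowest. The mean was 5.48 ± 0.553 in WWOX cells, 7.67 ± 0.189 in WFPA cells and 9.88 ± 0.159 in EV cells (SD, n = 3 each). This is a difference of -4.40 between WWOX and EV cells (21.1-fold), of -2.19 between WWOX and WFPA cells (4.56-fold) and of -2.21 between WFPA and EV cells (4.63-fold). In such bulk RNA, fewer cells that express a gene and less RNA of it per cell cannot be told apart.

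At 212588_at the WWOX arrays read 4.63, 3.81 and 3.76, the WFPA arrays 6.82, 6.85 and 6.75 and the EV arrays 8.95, 8.73 and 8.96. WWOX cells lay 4.81 log2 units under EV cells (28.1-fold) and 2.74 under WFPA cells (6.67-fold), and WFPA cells 2.07 under EV cells (4.21-fold). At 207238_s_at the WWOX arrays read 4.70, 3.87 and 3.85, the WFPA arrays 5.84, 5.59 and 5.48 and the EV arrays 7.70, 7.91 and 7.93. At both probe sets the order of the groups was the same as at the brightest one, again without overlap. The WWOX means of these probe sets, 4.07 ± 0.488 and 4.14 ± 0.487 (SD, n = 3 each), were dim, so these folds may be too small or too large. The WFPA cells covered 50.3% of the log2 distance from EV to WWOX cells at 212587_s_at, 43.1% at 212588_at and 59.7% at 207238_s_at. The spread between arrays was widest in WWOX cells at all 3 probe sets. Across the 9 arrays they followed each other with Pearson correlations of 0.971 to 0.979, a description that rests mainly on the distances between the 3 groups.

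The 2 dim PTPRC probe sets did not separate the 3 groups. 1552480_s_at read 2.23, 2.05 and 2.13 on the WWOX arrays, 2.13, 2.01 and 2.18 on the WFPA arrays and 1.88, 2.39 and 2.10 on the EV arrays. It was dim in every group, and the groups overlapped. 1569830_at read 3.28, 3.00 and 3.60 on the WWOX arrays, 3.40, 3.24 and 3.32 on the WFPA arrays and 3.46, 3.48 and 4.97 on the EV arrays. Its group means were dim as well, with 3.29 ± 0.3 in WWOX cells, 3.32 ± 0.0807 in WFPA cells and 3.97 ± 0.87 in EV cells (SD, n = 3 each). WWOX and EV arrays overlapped, and EV replicate 3 stood apart from the 8 other arrays. The files used here do not tell which PTPRC transcripts each probe set reads, so nothing can be said on CD45 isoforms.

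**Figure D1:**
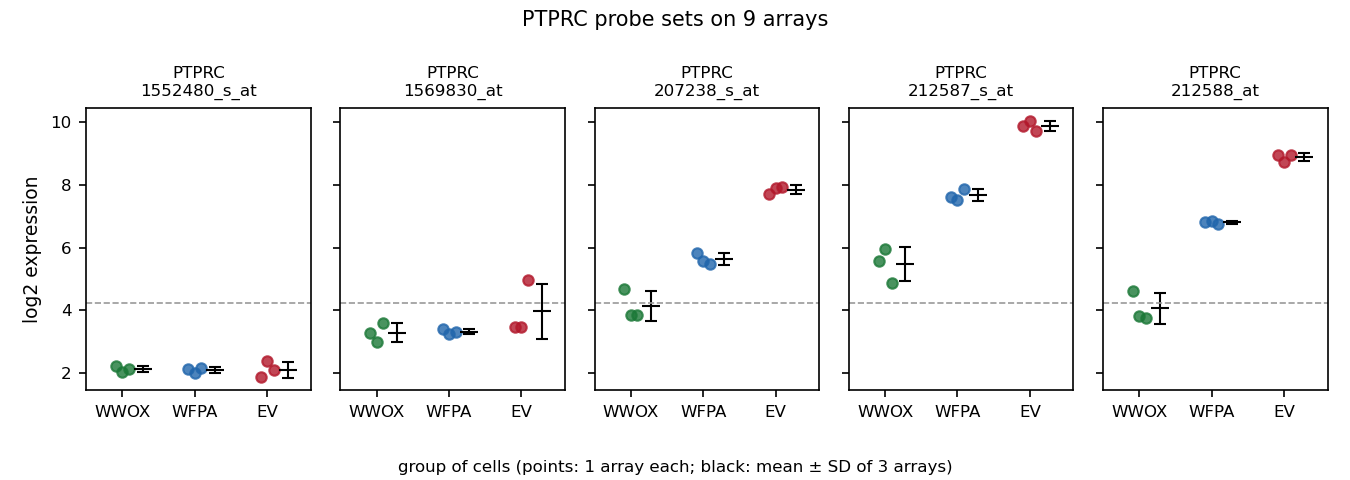
Log2 expression (y axis) of the 5 PTPRC probe sets in WWOX, WFPA and EV cells (x axis), with each array as a point, group means with SD bars (n = 3) in black and the lowest lower quartile, 4.23, as a dashed line. At 212587_s_at the means are 5.48, 7.67 and 9.88, and the 2 probe sets on the left stay under 5 on every array.

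Other genes of blood cells were read beside PTPRC, by the brightest probe set of each gene. Of 28 measured leukocyte markers none was called lower and 1 was called higher in WWOX than in EV cells. In this comparison 3.9% of all 19775 genes were called. A count of 1 among 28 is near that share and does not set the markers apart. At an unadjusted p under 0.05 in limma there were 5 markers. Here and below, the share of all genes with such a p was not taken, and these counts cannot be set against it. The gene that was higher is ARHGDIB, which is abundant in blood cells, with 9.13 in WWOX cells, 7.95 in WFPA cells and 5.81 in EV cells (adjusted p = 6.04e-06 for WWOX against EV). ARHGDIB was also the only marker called in WWOX against WFPA and in WFPA against EV cells, higher in both. In these comparisons 4.73% and 2.23% of all genes were called. The summed level of the 28 markers, as log2, was 12.50 to 12.66 on the WWOX arrays, 12.26 to 12.32 on the WFPA arrays and 12.07 to 12.21 on the EV arrays. LCP1 weighs most in this sum, and the median of the 28 levels was 5.70 in WWOX cells, 5.59 in WFPA cells and 5.60 in EV cells. Of the 28 markers 5 were dim in all 3 groups, namely CD3E, CD2, MS4A1, CD53 and HCLS1. Other lineage markers were not dim, among them CD3D (6.49 in WWOX cells, 6.19 in WFPA cells and 6.40 in EV cells), CD79A (6.62, 6.52 and 6.52) and TYROBP (6.49, 6.48 and 6.55). Levels of different probe sets are not on 1 scale and no background level is given. A level that is not dim thus does not show that a gene is expressed. Under 2-fold, CD52, a surface glycoprotein of lymphocytes, fell by 0.65 in WWOX against EV cells (limma adjusted p = 0.0102), with 5.66 in WWOX cells, 6.25 in WFPA cells and 6.31 in EV cells. LCP1, an actin-bundling protein of blood cells that many tumor lines also express, was higher by 0.47 (adjusted p = 0.011 from limma). In WWOX against WFPA cells 3 markers passed the adjusted p in limma higher and 2 lower, at any fold. Of these EVI2B was highest in WFPA cells (8.71, against 7.93 in WWOX cells and 8.04 in EV cells). Its differences of -0.79 for WWOX against WFPA and 0.68 for WFPA against EV cells were under 2-fold (adjusted p = 0.00724 and 0.0291 from limma). The part of blood cell RNA in the PTPRC values was not tested.

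Within the 9 arrays, the genes whose pattern was most like that of PTPRC at its brightest probe set were DENND2A, RELN, CLDN11, MB21D2, SPDL1 and LDB2, with Pearson correlations of 0.992, 0.989, 0.989, 0.988, 0.987 and 0.987. The search covered the 1214 genes whose group means span at least 1 log2 unit and whose highest group mean lies above the median, and over 3 groups of 3 arrays the correlation mostly expresses the same order and spacing of the groups. RELN, a secreted matrix glycoprotein known from neuronal migration, read 5.71, 5.97 and 5.43 on the WWOX arrays, 7.63, 7.42 and 7.44 on the WFPA arrays and 9.12, 9.12 and 9.54 on the EV arrays. It was the one of the 6 with the widest span, -3.56 between WWOX and EV cells. The tight junction protein CLDN11 read 8.89 ± 0.401 in WWOX cells, 10.35 ± 0.0334 in WFPA cells and 11.46 ± 0.118 in EV cells, and LDB2, a cofactor of LIM-domain transcription factors, 8.39 ± 0.266, 9.31 ± 0.0553 and 10.87 ± 0.0204 (SD, n = 3 each). The spans of DENND2A, MB21D2 and SPDL1 between WWOX and EV cells were -1.84, -1.42 and -1.27. In each of the 6 genes, as at the brightest PTPRC probe set, the WFPA arrays lay between the WWOX and the EV arrays. This order follows from choosing the genes by their likeness to that probe set and is no separate result.

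**Figure D2:**
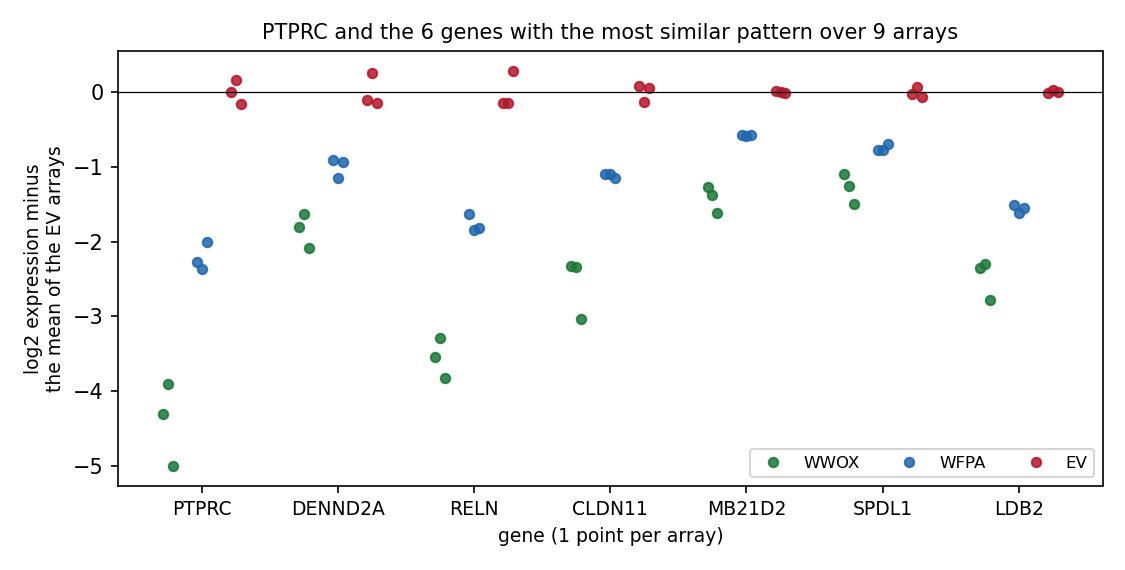
Log2 expression minus the mean of the EV arrays (y axis) of PTPRC at its brightest probe set and of the 6 genes most like it (x axis), 1 point per array in WWOX, WFPA and EV cells. The WWOX arrays of PTPRC and RELN lie lowest, with mean differences of -4.40 and -3.56 from EV cells.

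Among the 23 probe sets of the 8 other members few differed between the cells. A probe set was called at an adjusted p under 0.05 in limma, over all 54613 probe sets, and a change of at least 2-fold. In WWOX against EV cells 3 were called, 1 higher and 2 lower, which is 13% of the 23 beside 3.29% of all probe sets. In WWOX against WFPA cells 1 was called, lower (4.35% beside 3.98%). In WFPA against EV cells 1 was called, higher (4.35% beside 1.73%). In WWOX cells against the mean of both other groups, the comparison of the study's methods, 1 was called, lower (4.35% beside 3.23%). All of these calls were made at 1 probe set of PTPRE and 2 of PTPRF, and counts of 1 to 3 are too small to set the members apart from the other genes. The comparisons share arrays with each other and are given side by side. The median difference over the 23 probe sets was 0.07 for WWOX against EV cells, -0.01 for WWOX against WFPA cells and 0.03 for WFPA against EV cells, beside 0.02, 0.05 and -0.04 over all probe sets.

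**Figure D3:**
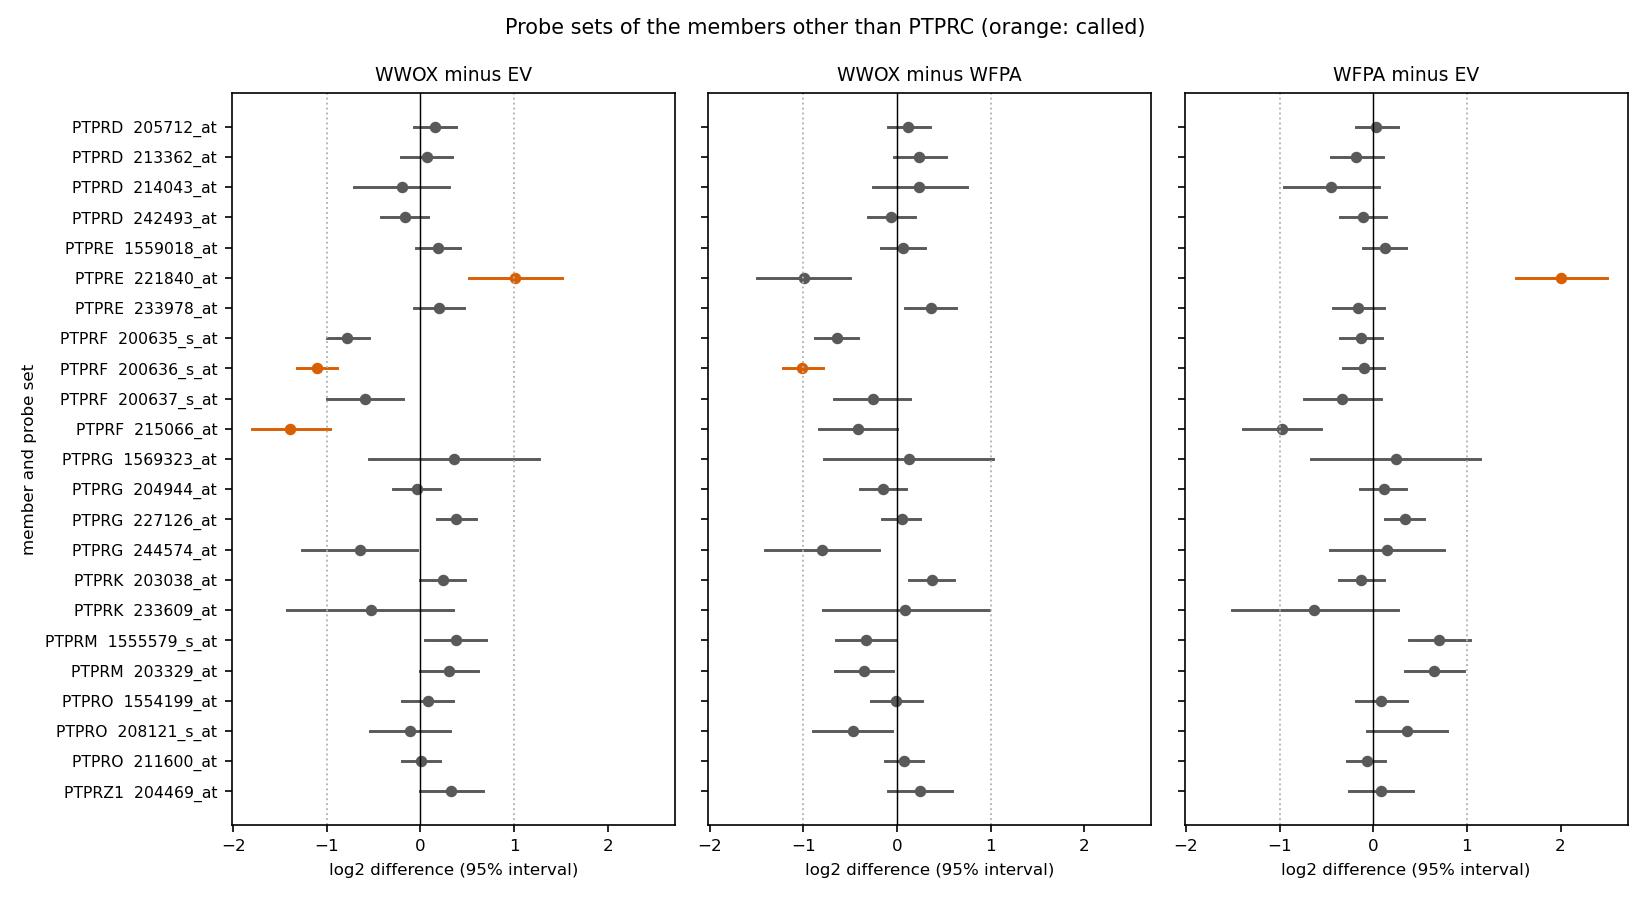
Log2 difference (x axis) with its 95% interval from limma at the 23 probe sets of the members other than PTPRC (y axis), for WWOX against EV, WWOX against WFPA and WFPA against EV cells, with called probe sets in orange and dotted lines at a 2-fold change. PTPRE stands out at 221840_at (2.01 between WFPA and EV cells), and all PTPRF differences lie left of 0.

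PTPRF, or LAR, is a phosphatase with immunoglobulin and fibronectin domains that acts at cell contacts and, in neurons, at synapses. It was lower in WWOX cells. At 200636_s_at the log2 expression was 9.73, 9.67 and 9.54 on the WWOX arrays, 10.67, 10.71 and 10.59 on the WFPA arrays and 10.69, 10.68 and 10.89 on the EV arrays. All WWOX arrays lay under the 6 others, and WFPA and EV arrays overlapped. WWOX cells fell by 1.11 against EV cells (2.16-fold, limma adjusted p = 9.99e-05, standard error 0.0951) and fell by 1.01 against WFPA cells (2.01-fold, limma adjusted p = 0.000157, standard error 0.0951). The call against WFPA cells ended without WFPA replicate 2 (-0.98) or WWOX replicate 3 (-0.96), which left it under 2-fold.

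At 200635_s_at, the brightest PTPRF probe set, the WWOX arrays read 10.79, 10.52 and 10.58, the WFPA arrays 11.28, 11.25 and 11.29 and the EV arrays 11.47, 11.28 and 11.47. The differences of -0.78 to EV cells (adjusted p = 0.00119) and -0.64 to WFPA cells (adjusted p = 0.00263) passed the adjusted p in limma and were under 2-fold. The probe sets 215066_at and 200637_s_at gave the same order of means with another spacing. At 215066_at the WWOX arrays read 6.71, 7.29 and 6.63, the WFPA arrays 7.10, 7.36 and 7.41 and the EV arrays 8.41, 8.34 and 8.05. Here WWOX cells fell by 1.39 against EV cells (limma adjusted p = 0.00143, standard error 0.184), while WFPA cells were lower than EV cells too, by 0.97 (adjusted p = 0.0144, under 2-fold), and WWOX and WFPA arrays overlapped. That difference between WFPA and EV cells reached 2-fold without EV replicate 3 (-1.08), WFPA replicate 2 (-1.01) or WFPA replicate 3 (-1.03). It did not pass the adjusted p in limma without EV replicate 1, EV replicate 2 or WFPA replicate 1 (0.0618, 0.056 and 0.0625). In WWOX cells against the mean of both other groups 215066_at differed by -0.90, and by -1.11 without WWOX replicate 2, when it was called. At 200637_s_at the means were 7.27 ± 0.204 in WWOX cells, 7.53 ± 0.218 in WFPA cells and 7.86 ± 0.306 in EV cells (SD, n = 3 each), and no comparison passed the adjusted p (0.0665, 0.35 and 0.376 in limma). All 4 probe sets thus had their lowest mean in WWOX cells, and they differed in how far WFPA cells lay under EV cells.

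PTPRE, the member of the family with a very short outer part, which dephosphorylates SRC-family kinases, was highest in WFPA cells. At 221840_at the log2 expression was 7.24, 7.25 and 6.65 on the WWOX arrays, 8.13, 7.92 and 8.07 on the WFPA arrays and 5.61, 6.38 and 6.11 on the EV arrays. The 3 groups did not overlap. WFPA cells rose by 2.01 above EV cells (4.02-fold, limma adjusted p = 0.000906, standard error 0.217), and WWOX cells by 1.01 (2.02-fold, limma adjusted p = 0.0167, standard error 0.217). The call of WWOX against EV cells ended without EV replicate 1 (0.80), WWOX replicate 1 (0.92) or WWOX replicate 2 (0.91). WWOX cells were under WFPA cells by 0.99 (adjusted p = 0.0143 from limma), just short of 2-fold, and passed it without WFPA replicate 2 (-1.06), WWOX replicate 1 (-1.09) or WWOX replicate 2 (-1.10). Without WFPA replicate 1 or 3 the adjusted p from limma rose to 0.0537 and 0.0513. At 233978_at the means were 5.40 ± 0.176, 5.04 ± 0.154 and 5.20 ± 0.0753 in WWOX, WFPA and EV cells, with WWOX arrays above WFPA arrays (difference 0.36, adjusted p = 0.0725 from limma), opposite to 221840_at. 1559018_at was dim in every group (2.46 to 2.64). The rise of PTPRE thus rests on 1 of its 3 probe sets.

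**Figure D4:**
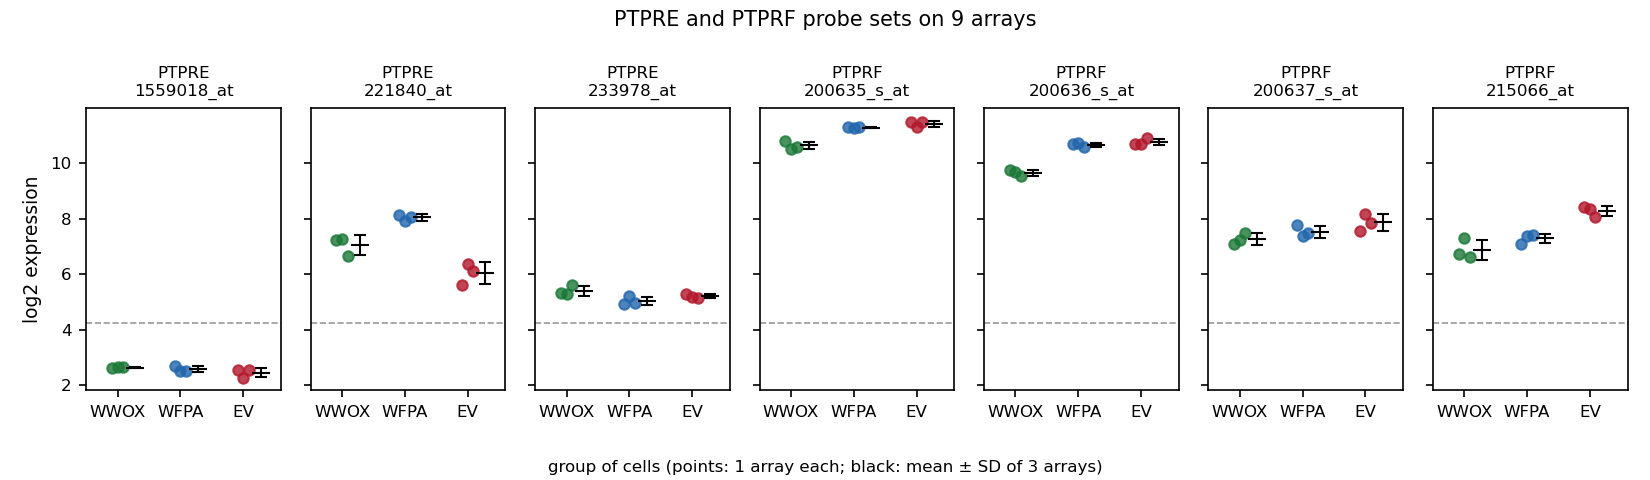
Log2 expression (y axis) of the 3 PTPRE and 4 PTPRF probe sets in WWOX, WFPA and EV cells (x axis), with each array as a point, group means with SD bars (n = 3) in black and the lowest lower quartile, 4.23, as a dashed line. PTPRE is highest in WFPA cells at 221840_at (mean 8.04), and PTPRF at 200636_s_at stands at 9.64 in WWOX cells against 10.65 and 10.75.

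PTPRM and PTPRK, whose outer MAM, immunoglobulin and fibronectin domains bind the same protein on the neighbouring cell, differed little. At PTPRM 1555579_s_at the WWOX arrays read 10.34, 10.01 and 10.16, the WFPA arrays 10.48, 10.50 and 10.53 and the EV arrays 9.78, 10.08 and 9.53. WFPA cells were above EV cells by 0.70 (adjusted p = 0.0203 from limma), and by 0.65 at 203329_at (adjusted p = 0.0244 from limma), both under 2-fold and without overlap of arrays. Neither passed the adjusted p in limma without EV replicate 1, EV replicate 3 or any 1 WFPA array (0.0612 to 0.0759, and 0.0673 to 0.0953). At both probe sets WWOX cells lay between the 2 other groups, and their differences from EV cells (0.38 and 0.30) and from WFPA cells (-0.33 and -0.35) did not pass the adjusted p. The order WFPA, WWOX, EV from high to low is that of PTPRE at 221840_at. PTPRK at 203038_at read 11.80, 11.90 and 11.54 on the WWOX arrays, 11.45, 11.33 and 11.35 on the WFPA arrays and 11.49, 11.55 and 11.48 on the EV arrays. WWOX cells were above WFPA cells by 0.37 (adjusted p = 0.0441 from limma, under 2-fold). With 1 array left out this adjusted p was 0.0615 to 0.132, except without WWOX replicate 3 (0.00759). The second PTPRK probe set, 233609_at, spread over 1.81 log2 units among the 9 arrays, with WWOX replicate 3 (5.60) the lowest. Its 95% interval of -1.42 to 0.35 between WWOX and EV cells leaves a wide range of differences possible.

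PTPRG and PTPRZ1 share an outer carbonic anhydrase-like domain, and bind contactins and other neural adhesion proteins. PTPRG at 204944_at read 10.65, 10.55 and 10.41 on the WWOX arrays, 10.72, 10.84 and 10.49 on the WFPA arrays and 10.61, 10.55 and 10.58 on the EV arrays. The groups overlapped, and the 95% interval of the difference between WWOX and EV cells was -0.29 to 0.21. At 227126_at WWOX cells were above EV cells by 0.38 (adjusted p = 0.0247 from limma, under 2-fold), with 9.53 ± 0.0593 in WWOX cells, 9.48 ± 0.0946 in WFPA cells and 9.14 ± 0.0875 in EV cells (SD, n = 3 each). This difference did not pass without EV replicate 1, EV replicate 3 or WWOX replicate 2 (adjusted p = 0.0885, 0.0879 and 0.0795 from limma). At 244574_at WWOX cells were the lowest group instead (5.41 ± 0.528 against 6.21 ± 0.166 and 6.06 ± 0.388), with a difference to WFPA cells of -0.80 (adjusted p = 0.0769 from limma) that was called without WWOX replicate 1 (-1.02) and was -0.51 without WWOX replicate 3. The PTPRG probe sets thus did not move together, and 1569323_at was dim in every group. PTPRZ1, a phosphatase of glial cells and their precursors and the receptor of pleiotrophin, was dim on every array. Its 204469_at read 3.04, 2.63 and 2.38 on the WWOX arrays, 2.43, 2.43 and 2.44 on the WFPA arrays and 2.43, 2.38 and 2.25 on the EV arrays, and WWOX replicate 1 was the highest. Beside it, 3 of 8 measured glial and Schwann cell markers, OLIG1, ERBB3 and CDH19, were called higher in WWOX than in EV cells, by 2.63, 1.43 and 2.11. In this comparison 3.9% of all genes were called. OLIG1 and CDH19 were dim in EV cells (3.22 and 3.26), so the size of their differences is uncertain. OLIG2 was higher in WWOX than in EV cells by 0.89, under 2-fold (adjusted p = 0.00216 from limma). In the same comparison GFAP, MBP, NGFR and GAP43 did not pass the adjusted p. Against WFPA cells 2 of the 8 markers were called higher, OLIG1 and CDH19, beside 4.73% of all genes. ERBB3 (0.85) and GFAP (0.27) passed only the adjusted p there (0.00154 and 0.0394 from limma), as did OLIG2 (0.75, 0.00407).

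PTPRD, a relative of PTPRF that organizes synapses, was dim in every group at all 4 of its probe sets (205712_at, 213362_at, 214043_at and 242493_at). Its group means ran from 2.40 to 3.62, the largest difference between groups was that of 214043_at between WFPA and EV cells (-0.45, 95% interval -0.95 to 0.06), and no adjusted p passed. PTPRO, a phosphatase of kidney podocytes, neurons and blood cells, had probe sets that disagree in level. 211600_at read 13.51, 13.40 and 13.24 on the WWOX arrays, 13.27, 13.32 and 13.32 on the WFPA arrays and 13.35, 13.37 and 13.40 on the EV arrays, 1554199_at was dim in every group, and 208121_s_at had means of 4.22 ± 0.178, 4.69 ± 0.405 and 4.33 ± 0.116 in WWOX, WFPA and EV cells (SD, n = 3 each). Levels of different probe sets are not on 1 scale, and the files do not tell which of them reads PTPRO mRNA in these cells. At 211600_at the 95% interval of the difference between WWOX and EV cells was -0.20 to 0.21, and no PTPRO probe set passed the adjusted p in any comparison.

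The rest of the tyrosine phosphatase family was read by the brightest probe set of each gene. At this level 3.9% of the 19775 genes were called between WWOX and EV cells, 4.73% between WWOX and WFPA cells, 2.23% between WFPA and EV cells and 4.01% between WWOX cells and the mean of both other groups. Of 8 measured receptor-type members outside the set (PTPRA, PTPRB, PTPRH, PTPRN, PTPRN2, PTPRR, PTPRS and PTPRU) none was called between WWOX and EV cells. Between WWOX and WFPA cells 1 was called, lower in WWOX cells, and between WFPA and EV cells 1, higher in WFPA cells. At an unadjusted p under 0.05 in limma these 3 comparisons held 2, 5 and 3 of the 8 genes. In WWOX against WFPA cells 3 of the 8 passed the adjusted p in limma at any fold, all lower. The median differences of the 8 genes were -0.11, -0.22 and 0.30, beside 0.03, 0.07 and -0.04 over all genes. PTPRR, which dephosphorylates ERK kinases, read 9.90, 9.58 and 9.53 on the WWOX arrays, 10.75, 10.81 and 10.81 on the WFPA arrays and 9.77, 9.82 and 9.80 on the EV arrays, with a fall of WWOX cells by 1.12 against WFPA cells (limma adjusted p = 0.00016, standard error 0.106). WFPA cells were above EV cells by 0.99, just under 2-fold (adjusted p = 0.000827 from limma). PTPRU, a relative of PTPRM and PTPRK, was 6.84 ± 0.123 in WWOX cells, 7.01 ± 0.285 in WFPA cells and 5.91 ± 0.146 in EV cells (SD, n = 3 each), and rose in WFPA against EV cells by 1.09 (adjusted p = 0.00324 from limma), a call that ended without WFPA replicate 3 (0.93). The difference of PTPRR between WFPA and EV cells reached 2-fold without EV replicate 2 (1.00) or WFPA replicate 1 (1.02). PTPRU was also above EV cells in WWOX cells, by 0.93 (adjusted p = 0.00424 from limma, under 2-fold), and its WWOX and WFPA arrays overlapped (difference -0.16, adjusted p = 0.494 from limma). Of 17 non-receptor tyrosine phosphatases, among them PTPN1, PTPN6 and PTPN11, none was called in any of the 4 comparisons. Between WWOX and EV cells 7 had an unadjusted p under 0.05 in limma and 4 passed the adjusted p under 2-fold, lower in WWOX cells. Of all 54613 probe sets, dim ones included, 2757 higher and 3706 lower ones passed the adjusted p in this comparison without a fold limit. That share was not taken over genes at their brightest probe set, so the 4 genes cannot be set against it. Counts this small cannot set these phosphatases apart from the other genes. The median difference of the 17 genes was -0.09 between WWOX and EV cells and 0.04 between WWOX and WFPA cells, beside 0.03 and 0.07 over all genes.

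The next list held 18 measured SRC-family and JAK kinases, their regulators and partners of CD45. In each comparison of WWOX cells with EV or WFPA cells 1 was called higher and 1 lower, beside 3.9% and 4.73% of all genes. None was called between WFPA and EV cells, beside 2.23% of all genes. The counts are too small to set the list apart. At an unadjusted p under 0.05 in limma these 3 comparisons held 10, 8 and 5 of the 18 genes. FYN, a SRC-family kinase and known CD45 substrate, read 8.37, 7.75 and 8.10 on the WWOX arrays, 9.48, 9.51 and 9.68 on the WFPA arrays and 9.28, 9.10 and 9.11 on the EV arrays. It fell by 1.09 against EV cells (limma adjusted p = 0.00184, standard error 0.151) and fell by 1.48 against WFPA cells (limma adjusted p = 0.000249, standard error 0.151), with every WWOX array under the 6 others. Without WWOX replicate 2 the difference to EV cells (-0.93) was under 2-fold. PAG1, the membrane adaptor that recruits the inhibitory kinase CSK to SRC-family kinases, read 9.95, 9.82 and 9.43 on the WWOX arrays, 8.28, 8.46 and 8.55 on the WFPA arrays and 8.66, 8.53 and 8.69 on the EV arrays. It rose by 1.10 against EV cells (adjusted p = 0.00109 from limma) and by 1.30 against WFPA cells (adjusted p = 0.000339 from limma). Without WWOX replicate 1 the difference to EV cells was just under 2-fold (1.00 as rounded). In both genes WFPA cells were not called against EV cells (0.39 and -0.20), unlike the intermediate WFPA level of PTPRC. The median difference of the 18 genes was 0.03 between WWOX and EV cells, the same as over all genes.

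The last list held 34 measured ligands, scaffolds and substrates of the adhesion-type members. Of these, 2 were called higher and none lower in WWOX than in EV cells. Against WFPA cells 2 were called higher and 1 lower in WWOX cells, and none was called between WFPA and EV cells. Over all genes 3.9%, 4.73% and 2.23% were called in these comparisons, and the counts are too small to set the list apart. At an unadjusted p under 0.05 in limma these comparisons held 13, 13 and 4 genes. IL1RAP, the interleukin-1 receptor accessory protein, which also binds PTPRD across synapses, read 9.77, 9.65 and 9.23 on the WWOX arrays, 7.86, 7.55 and 7.62 on the WFPA arrays and 7.26, 7.44 and 7.62 on the EV arrays. It rose by 2.11 against EV cells (limma adjusted p = 4.54e-05, standard error 0.16) and by 1.87 against WFPA cells (limma adjusted p = 8.72e-05, standard error 0.16). SLITRK6, of a family of neuronal adhesion proteins whose members bind PTPRD and its relatives, was 6.44 ± 0.324 in WWOX cells, 4.64 ± 0.228 in WFPA cells and 4.65 ± 0.287 in EV cells (SD, n = 3 each), a rise of 1.79 against EV cells (adjusted p = 0.000541 from limma). The heparan sulfate proteoglycan SDC2, a ligand of PTPRJ, was lower than in WFPA cells by 1.19 (adjusted p = 0.026 from limma), with WWOX replicate 3 (6.34) well under the WWOX arrays at 7.72 and 7.45. That call ended without WWOX replicate 3 (-0.77, under 2-fold) and without WFPA replicate 1 (-1.25), 2 (-1.18) or 3 (-1.13), when the adjusted p from limma rose to 0.0595, 0.0755 and 0.0864. Its difference to EV cells, -0.87, did not pass (adjusted p = 0.0991 from limma), and ran from -1.15 without WWOX replicate 1, when it was called, to -0.46 without WWOX replicate 3. The median difference of the 34 genes between WWOX and EV cells was 0.14, beside 0.03 over all genes.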

How the data were processed

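RNA of WWOX, WFPA and EV cells was hybridized to 9 Affymetrix U133 Plus 2.0 arrays, 3 per group. The deposited values are log2 intensities that the authors calibrated and normalized in Partek Genomics Suite; the background and normalization methods are not given in the sources used here. No further normalization was applied. Of 54675 probe sets 62 array controls were left out. Of the 54613 others 41091 carry 1 gene in the platform annotation, 1801 several and 11721 none. Where a gene is given by 1 probe set, the brightest on average was taken.

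Group means were fitted to all probe sets with limma 3.58.1 under R 4.3.3 (6 residual and 3.04 prior degrees of freedom), with Benjamini-Hochberg adjustment over all of them. A probe set was called at an adjusted p under 0.05 and at least 2-fold; the methods of the study use 4-fold. The fit was tested on simulated data. No array batch was tested. The number of arrays limits the precision, no arrays were identical, and arrays of 1 group correlated at 0.987 to 0.996. The members and lists were chosen with earlier results of these data known. Named are all probe sets of the members, WWOX, in each list at most 4 of the called genes, by size of change, and the 6 genes with the highest Pearson correlation with PTPRC among 1214 whose group means span at least 1 log2 unit and whose highest group mean lies above the median of all values (6.03). Marker genes were named as examples after their values were seen. Nothing in the sample titles says that the replicate numbers pair the arrays, and the main fit did not pair them. Alternatives were limma-trend, an ordinary 1-way model, Bonferroni adjustment, a 4-fold and no fold limit, quantile normalization, median centring, a filter on dim probe sets, the replicate number as a block and leaving out each array. Promoter windows are those of RefSeq. Figures were drawn with Python 3.11.15, pandas 2.3.3 and matplotlib 3.10.9.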

Additional observations from a re-analysis of the deposited data

How the results depend on the processing

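The PTPRC difference at its brightest probe set moved by less than 1 SD, that of the more variable group compared, under median centring and quantile normalization. The same held with any 1 array left out. It then ran from -4.65 to -4.10 for WWOX against EV, -2.44 to -1.89 for WWOX against WFPA and -2.32 to -2.13 for WFPA against EV cells. PTPRC was chosen for this fall, so that its direction was kept is a description and no support for it. The counts of called probe sets of the other members are small and moved by over 1.5 times under several settings. With a 4-fold limit 0 were called in WWOX cells against the mean of EV and WFPA, against EV and against WFPA, and with no fold limit 3, 5 and 4, and 4 in WFPA against EV cells. With Bonferroni adjustment 0 were called in WWOX against EV, WWOX against WFPA and WFPA against EV cells. In WWOX against WFPA cells 2 were called with median centring (PTPRE added) and 0 with quantile normalization (PTPRF at -0.98), and in WFPA against EV cells 2 with quantile normalization (PTPRF 215066_at added). With 1 array left out the counts were 1 to 2 for WWOX against the mean of EV and WFPA, 2 to 3 for WWOX against EV, 0 to 3 for WWOX against WFPA and 1 to 2 for WFPA against EV cells. PTPRE in WWOX against EV cells also lost its call in an ordinary 1-way model (adjusted p = 0.0631). No difference that passed the adjusted p, or was called under any of these settings, changed its direction among the probe sets of the other members. No pairing of the arrays is known beyond a replicate number. Deviations of same-numbered arrays correlated at -0.0521 to 0.0348, and with the replicate block the counts were 1, 3, 1 and 1 as without it. These values do not settle whether the numbers pair the arrays. Of the listed genes, the calls named in the text that ended without 1 array are given beside them; with Bonferroni adjustment FYN, PAG1, SLITRK6, SDC2, PTPRR and PTPRU were not called in any comparison, and IL1RAP was called in all 3 comparisons of WWOX cells. With Bonferroni adjustment the glial markers OLIG1 and CDH19 also lost their calls in WWOX against EV cells. A difference to or from a dim value has an uncertain size, and 3 arrays per group limit what could be detected. The cause of these shifts was not tested.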
